A study of Mus musculus with 6 samples.

Results

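The cytoplasmic ribosomal protein (RP) genes were collected by symbol from the deposited count matrix. A row was taken where its symbol was Rpl or Rps followed by digits with an optional letter or an l-type suffix, or was *Rplp0*, *Rplp1*, *Rplp2* or *Rpsa*, and S6 kinases and pseudogenes marked -ps were left out. This rule gave 84 of the 24421 rows, 52 named for the large subunit and 32 named for the small subunit. The 32 include *Rps4l*, which the rule kept by its symbol although Gencode M21 lists it as a transcribed processed pseudogene. RNA had been sequenced from heads of E9.0 mouse embryos in 3 WT libraries (SnrpB +/+) and 3 Het libraries (SnrpB+/-, written here *Snrpbncc+/-*), and each library came from 2 somite-matched heads of different litters. Het embryos carried 1 *Snrpb* allele with loxP sites, and the *Wnt1-Cre2* transgene removes exons of it in the neural tube and neural crest, so the remaining head cells (mesoderm, vessels, blood, surface ectoderm) kept both copies. The labels give C57BL/6 as the strain and also name CD1, no treatment was given to either group, and whether the WT embryos carried the transgene was not stated for these pools.

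The ribosome is built from ribosomal RNA and from proteins of the large subunit, where peptide bonds form, and of the small subunit, which reads the mRNA. Each protein is needed at about 1 copy per ribosome, apart from the acidic stalk proteins, and most mouse RP proteins come from a single intron-bearing gene that has many intronless processed copies elsewhere in the genome. RP mRNAs typically begin with a terminal oligopyrimidine (TOP) tract, through which mTOR signalling controls their translation. When ribosome assembly is disturbed, free RPs can bind Mdm2, the ubiquitin ligase that keeps p53 low, and loss of 1 copy of several RP genes causes Diamond-Blackfan anaemia, a disorder of red cell production that often comes with craniofacial defects. *Snrpb* encodes SmB, a core protein of the spliceosomal snRNPs, and many RP introns carry snoRNA genes whose products guide modification of ribosomal RNA.

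The libraries held 36378803 to 74909774 counts. *Snrpb* itself did not separate the groups at the level of the whole gene, with 430, 438 and 414 CPM (counts scaled to the effective size of the library) in WT 1, 2 and 3 and 436, 412 and 430 CPM in Het 1, 2 and 3. Its log2 fold change, given throughout as Het minus WT, was -0.0036 ± 0.039 (SE). Neural tube markers (*Sox2*, *Otx2*, *Pax6*, *Sox1*, *Nes*) summed to 698, 581 and 603 CPM in WT 1, 2 and 3 and to 577, 574 and 568 CPM in Het 1, 2 and 3, and neural crest markers (*Sox10*, *Foxd3*, *Tfap2a*, *Twist1*, *Sox9*) to 119 to 152 CPM, so both tissues were present in each head pool. The neural tube sum was lower in every Het library than in every WT library, but narrowly, at 577 CPM in Het 1 and 581 CPM in WT 2. Taken singly, each of these markers overlapped between the groups. None had an unadjusted p under 0.05 in edgeR, the lowest being 0.060 (*Nes*). Sex-linked transcripts differed between pools: 4 Y-linked genes summed to 62.8 to 120.04 CPM in WT and 111 to 228 CPM in Het, and *Xist* was at 0.368 CPM in Het 2 against 65.05 to 155 CPM in the other libraries. In bulk RNA, fewer cells of a type and less RNA per cell cannot be told apart.

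RP genes took 6.55%, 6.73% and 6.51% of all counts in WT 1, 2 and 3, and 7.004%, 6.80% and 6.77% in Het 1, 2 and 3. The 3 Het shares therefore lay above the 3 WT shares, but the lowest Het library and the highest WT library were almost level. Group means were 6.60% ± 0.114 (SD, n = 3) in WT and 6.86% ± 0.127 (SD, n = 3) in Het, a difference of 0.263 percentage points, which fell to 0.191 without Het 1. The small subunit accounted for 2.63% ± 0.031 in WT and 2.74% ± 0.068 in Het (SD, n = 3), and its ranges did not meet. The large subunit accounted for 3.97% ± 0.089 and 4.11% ± 0.070 (SD, n = 3), and its ranges overlapped. The 77 genes of the mitochondrial ribosome, which is separate in its proteins and its RNA, took 0.374% ± 0.0033 in WT and 0.379% ± 0.0065 in Het (SD, n = 3), also overlapping.

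**Figure D1:**
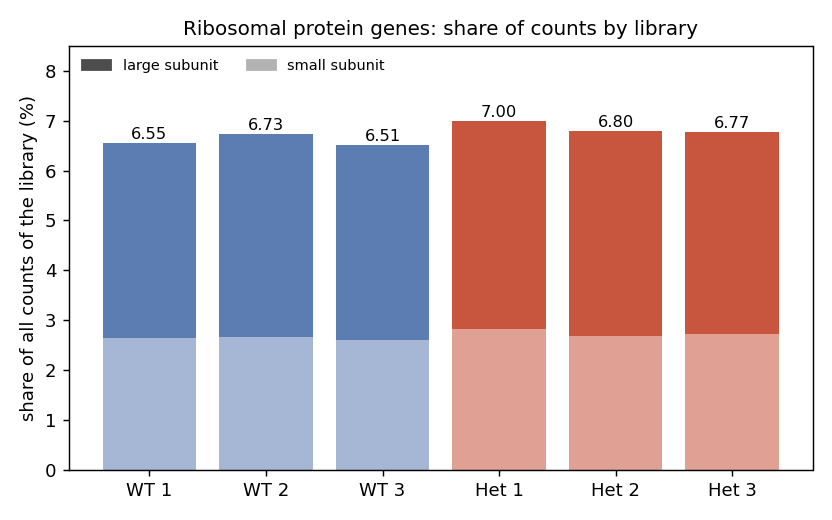
Share of all counts of each library (y axis, %) that fell on the 84 cytoplasmic RP genes in the 3 WT (blue) and 3 Het (red) libraries (x axis), split into large subunit (dark, top) and small subunit (pale, bottom), with the sum above each bar. The sums run from 6.51 to 6.73% in WT and from 6.77 to 7.004% in Het.

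Levels differed widely between members. By mean over the libraries, before division by length, 61 members lay above 500 CPM, 14 between 100 and 500 CPM and 9 at or below 100 CPM. Divided by the exon length of each gene, so that genes could be set against each other, the median level was 356 CPM per kilobase. *Rplp1* and *Rplp0*, proteins of the stalk that recruits translation factors to the ribosome, led with 2660.3 and 1617 CPM per kilobase. *Rps15* followed with 1328, *Rpl4* with 1231 and *Rpl8* with 1215 CPM per kilobase, and these 3 are structural proteins of the small subunit (*Rps15*) and the large subunit (*Rpl4* and *Rpl8*). Below *Rplp1* and *Rplp0* the order depends on the length used: divided by the longest transcript, *Rpl41* (1726), *Rpl8* (1619), *Rpl7a* (1617), *Rpl4* (1606) and *Rps29* (1590.1) all passed *Rps15* (1462). None of the 5 leaders by exon length changed past the test: their log2 fold changes ran from -0.0049 ± 0.041 (*Rplp0*, SE) to 0.057 ± 0.031 (*Rpl4*, SE).

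At the other end, *Rpl29* (67.3 CPM per kilobase) and *Rps4l* (57.9) stood below nearly all other tested members, and *Rpl34* (3.06), *Rps27* (2.37) and *Rpl30* (0.925) were lower still. *Rpl34*, *Rps27* and *Rpl30* encode core proteins of every ribosome, and their rows were low in all 6 libraries: *Rpl34* ranged from 6.92 to 9.30 CPM, *Rps27* from 2.32 to 2.66 CPM and *Rpl30* from 2.28 to 3.16 CPM. A further 4 members were too low to be tested. *Rpl10l* was listed at 0 in all 6 libraries, and *Rpl26* had 1 count in WT 2 and was listed at 0 elsewhere. *Rpl39l* and *Rpl3l* had at most 8 and 5 counts per library. *Rpl26* encodes a protein of every ribosome, while *Rpl10l*, *Rpl39l* and *Rpl3l* are copies known from testis or muscle.

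**Figure D2:**
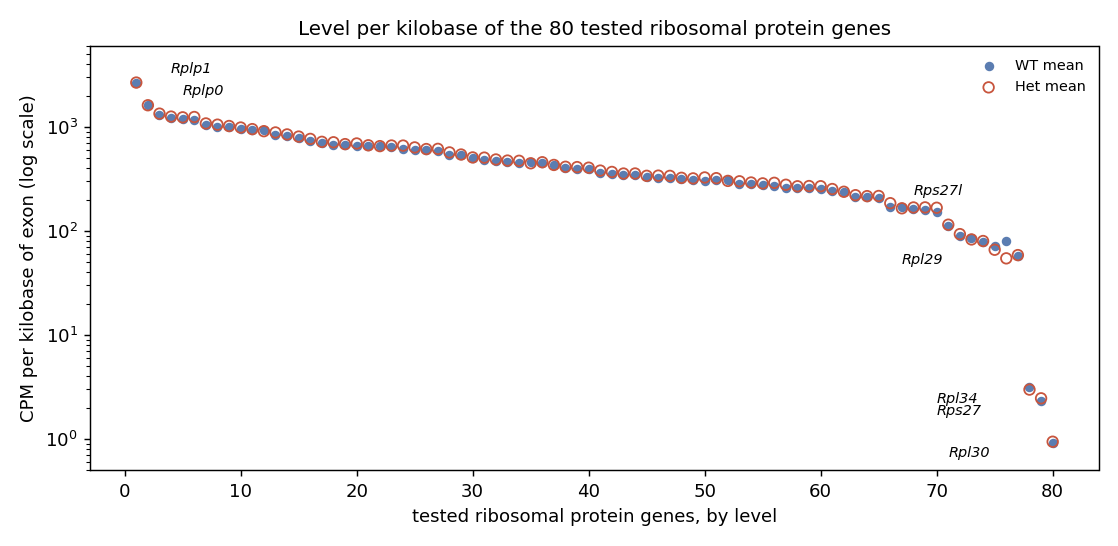
Level of the 80 tested RP genes in CPM per kilobase of exon (y axis, log scale), ordered from the highest to the lowest mean (x axis), as the mean of the 3 WT libraries (filled blue) and of the 3 Het libraries (open red). The WT and Het marks lie on each other for nearly all genes, *Rpl29* being the clearest exception, and *Rpl34*, *Rps27* and *Rpl30* fall more than 10-fold below the rest.

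Many RP rows share sequence with other genes, so their counts are uncertain where a read could be given to a processed copy. Of all windows of 100 bases along the members' transcripts, the median member shared 31.03% exactly with a transcript of another gene in the Gencode M21 annotation. *Rps27* shared 98.4% of its windows with 2 genes, *Rpl10* 84.4% with 10 and *Rpl29* 50.3% with 25, whereas 8 members, among them *Rps27l*, *Rpl22* and *Rps3*, shared none. *Rpl10* stood at 495 CPM per kilobase, above the median member, and *Rps27* at 2.37. The fraction was taken over a single transcript per gene, so a long transcript can lower it, as in *Rps15a* (3.03% of 5080 windows). The part of shared sequence in the level of any row was not tested. Spearman's rho across the 80 tested members was 0.071 between the shared fraction and the level per kilobase and -0.0044 between the shared fraction and the spread within groups, as a description of genes that are not independent. Exons of 19 members also overlapped a gene on the other strand, at 10% or more of their exon bases in 7 members, such as *Rpl5* (24.3%) and *Rpl30* (20.4%). Exons of 28 overlapped another gene on the same strand, such as *Rpl36al* (24.5%).

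The 6 libraries carried a common pattern across RP genes. After centring each of the 80 tested members on its own mean log2 CPM, the median member lay at -0.045, 0.0041 and -0.027 in WT 1, 2 and 3 and at 0.059, 0.0042 and 0.0085 in Het 1, 2 and 3. Het 1 was thus the highest library and held the highest value for 57 of the 80 members. WT 1 held the lowest value for 37 members and WT 3 for 24, while WT 2 stood level with Het 2 and Het 3. Pairs of members had a median Pearson's r of 0.477 over the 6 libraries, and 48.2% of pairs exceeded 0.5. All points of such an r share the library and its scaling, so the coefficient describes these libraries. Against the mean of all tested members, 24 members reached an r above 0.8 and 2 were negative.

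WT 1, with the most members at their lowest value, also had the highest sum of primitive erythroid markers (1485 CPM, against 872 to 1206 CPM in the others) and of visceral endoderm markers (24.8 CPM, against 4.92 to 6.18 CPM). It also had the highest sum of neural tube markers (698 CPM, against 568 to 603 CPM) and the lowest of cardiac markers (5.63 CPM, against 16.8 to 72.4 CPM). Het 1, with the most members at their highest value, had 882 CPM of erythroid markers, close to the 872 CPM of WT 2. All 5 erythroid and all 5 visceral endoderm markers were above 0 in every library, and the part of all these markers in the RP pattern was not tested.

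**Figure D3:**
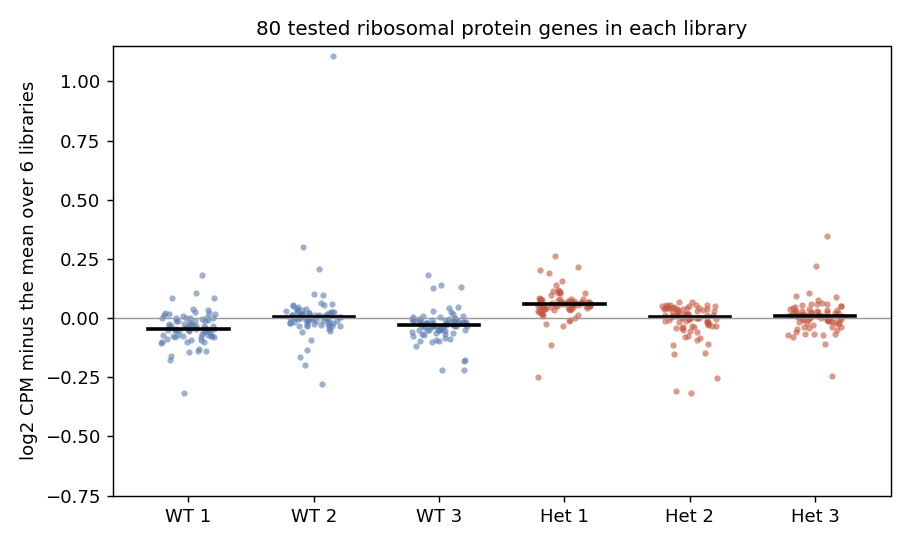
Log2 CPM of each of the 80 tested RP genes minus that gene's mean over the 6 libraries (y axis), by library (x axis, WT blue and Het red), with 1 point per gene and a bar at the median. The medians are lowest in WT 1 (-0.045) and highest in Het 1 (0.059), and the single point above 1 in WT 2 is *Rpl29*.

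Between genotypes, most RP mRNAs differed by no more than a few percent. Of the 84 members, 80 passed the filter on low counts and were tested with edgeR among 15584 genes. No member passed an adjusted p of 0.05, and the lowest adjusted p in edgeR was 0.437. In the whole table, 1 gene (*A3galt2*, which is no RP gene and was named after its value was seen) passed, or 0.00642% of those tested. DESeq2 gave no member either, with a lowest adjusted p of 0.388, against 84 genes or 0.647% of its 12976 tested. At an unadjusted p under 0.05, 5 members were higher in Het and 0 were lower, against 4.34% of all tested genes higher and 4.09% lower.

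The direction, though small, was shared. The log2 fold change was above 0 for 70 of the 80 tested members, against 50.2% of all tested genes, with a median of 0.049 (quartiles 0.028 and 0.069) beside a median of 0.00041 over all genes. Every Het library lay above every WT library in 21 members, or 26.25% of those tested, against 8.32% of all genes, and in 0 members did every Het library lie below, against 6.92%. Without Het 1, the median fell to 0.030 with 59 of 80 members above 0. Both remaining Het libraries lay above all WT libraries in 22 members (27.5%), against 13.3% of all genes. In 5 members both lay below, and the share of all genes that did so was not counted. Without WT 1, the median was 0.033 with 64 members above 0. All Het libraries then lay above both remaining WT libraries in 24 of 80 members, against 14.9% of all genes. The members move together across libraries, so these counts do not stand for 80 separate observations. The summed neural tube markers also separated the groups, narrowly and in the opposite direction (568 to 577 CPM in Het, 581 to 698 CPM in WT). No single marker of that sum did so, and the part of these markers in the RP difference was not tested.

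Large and small subunit genes gave like values. The median log2 fold change was 0.049 over 48 tested large subunit genes (40 above 0) and 0.050 over 32 small subunit genes (30 above 0). The 4 members on the X chromosome (*Rpl10*, *Rpl36a*, *Rpl39* and *Rps4x*) had a median of 0.054. With the mean log2 CPM of the Y-linked genes as a covariate, the median over all tested members was 0.040 and 61 of 80 were above 0. RP genes were measured tightly: the median SD within groups was 0.043 on the log2 scale, against 0.105 over all tested genes. As a result, 69 of the 80 members had a 95% interval of the log2 fold change that lay within 0.25 of 0 on both sides, and 75 intervals included 0.

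**Figure D4:**
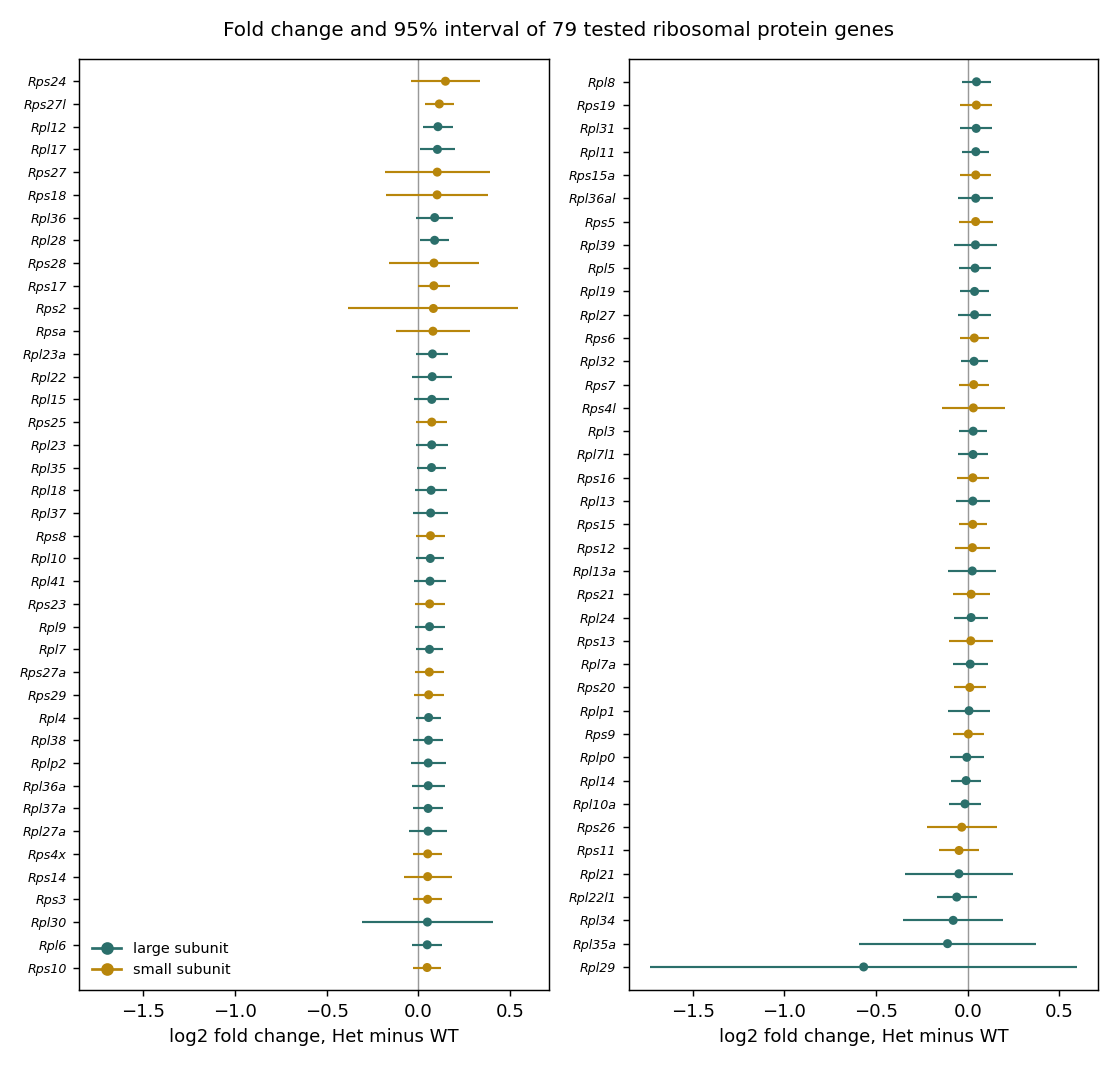
Log2 fold change, Het minus WT, with its 95% interval from edgeR (x axis) for 79 of the 80 tested RP genes (y axis), sorted from the highest at the upper left to the lowest at the lower right and coloured by subunit. Most points lie just right of 0 with narrow intervals, and *Rpl29*, *Rpl35a* and *Rps2* have wide ones.

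The member with the smallest p was *Rps27l*, a copy of *Rps27* that is a known p53 target and whose protein can bind Mdm2. It is carried at chr9:66946086-66949516 (mm10, plus strand). *Rps27l* was at 140, 139 and 139 CPM in WT 1, 2 and 3 and at 152, 149 and 151 CPM in Het 1, 2 and 3. The Het values all stood above the WT values, and the spread within each group was small. The log2 fold change was 0.12 ± 0.035 (SE), with a p of 0.0092 and an adjusted p of 0.437 in edgeR, so the member did not pass the test.

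*Rps27*, its parent at chr3:90212522-90213651 (mm10, minus strand), was at 2.50, 2.32 and 2.35 CPM in WT and 2.49, 2.54 and 2.66 CPM in Het, and the groups overlapped. Its log2 fold change was 0.10 ± 0.13 (SE). The first 60 coding bases are shown to set the copy apart from its parent, read 5′ to 3′ from the Gencode M21 transcripts, with the 18 differing bases in capitals:

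Rps27: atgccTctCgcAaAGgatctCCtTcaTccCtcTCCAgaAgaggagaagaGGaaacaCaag

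Rps27l: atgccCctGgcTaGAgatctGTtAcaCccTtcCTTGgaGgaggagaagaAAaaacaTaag

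Over the whole coding sequence, of 252 bases in each, the pair was 76.2% identical, and no window of 100 bases of *Rps27l* was shared with any other gene. The copies can therefore be told apart by reads. The *Rps27* row, by contrast, shared nearly all its windows with other genes.

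The further members described here with an unadjusted p under 0.05, *Rpl12*, *Rpl28* and *Rpl17*, encode large subunit proteins, and all were higher in Het. *Rpl12*, at the base of the stalk, was at 1072.5, 1133.5 and 1062 CPM in WT and 1159, 1170.5 and 1192 CPM in Het. The groups did not meet, and the log2 fold change was 0.11 ± 0.037 (SE), with a p of 0.017 and an adjusted p of 0.478 in edgeR. *Rpl28* was at 505, 498 and 500.4 CPM in WT and 538, 542 and 519.8 CPM in Het, with a log2 fold change of 0.090 ± 0.034 (SE), a p of 0.028 and an adjusted p of 0.518 in edgeR. Here too every Het library exceeded every WT library.

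*Rpl17*, whose protein lies near the exit of the peptide tunnel, was at 787, 831 and 828 CPM in WT and 909, 887 and 835 CPM in Het. Its groups stood apart only narrowly, at WT 2 and Het 3, and the log2 fold change was 0.11 ± 0.043 (SE), with a p of 0.037 and an adjusted p of 0.550 in edgeR. These 3 rows shared 31.3% (*Rpl28*) to 46.8% (*Rpl12*) of their windows with other genes, so that they are less certain than *Rps27l*.

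The remaining copies of RP genes gave no further difference past the test. *Rpl22l1*, a copy of *Rpl22* with a role in splicing and blood development, was at 168, 179.6 and 167 CPM in WT and 174, 162 and 159 CPM in Het. The groups overlapped, and the log2 fold change was -0.060 ± 0.049 (SE). *Rpl22* itself was at 432, 489 and 472 CPM in WT and 499, 491 and 479 CPM in Het, with a log2 fold change of 0.077 ± 0.049 (SE). The 2 log2 fold changes had opposite signs, but neither difference passed the test, and the difference between them was not tested.

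*Rpl36al* and its parent *Rpl36a* had log2 fold changes of 0.044 ± 0.043 and 0.055 ± 0.040 (SE), with overlapping groups in both. *Rpl7l1* overlapped too (0.029 ± 0.035), while every Het library of *Rpl7* lay above every WT library (0.062 ± 0.033), and the difference within either pair was not tested. *Rps4l*, annotated as a transcribed processed pseudogene, was at 48.8 to 60.003 CPM in WT and 52.3 to 57.05 CPM in Het, and *Rps4x* at 1308 to 1362 CPM and 1347.5 to 1401 CPM. Their log2 fold changes were 0.031 ± 0.075 and 0.052 ± 0.034 (SE). *Rpl10* (0.066 ± 0.034), *Rpl39* (0.042 ± 0.052) and *Rpl3* (0.030 ± 0.034), the parents of the untested copies, likewise had log2 fold changes near those of all members. Identity of the coding sequence between copy and parent ran from 53.0% (*Rpl7* and *Rpl7l1*) through 66.9% (*Rpl22* and *Rpl22l1*) to 87.7% (*Rpl36a* and *Rpl36al*).

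A small set of members varied between libraries far more than the others: 12 of the 80 had an SD within groups above 0.1 on the log2 scale, while 49 stayed under 0.05. *Rpl29*, which encodes a small basic protein of the large subunit, was at 56.7, 152 and 62.1 CPM in WT and 65.3, 59.1 and 59.5 CPM in Het. A single library, WT 2, stood more than 2-fold above the other 5, which were level. The log2 fold change of -0.57 ± 0.44 (SE) was the lowest of all members, did not pass the test (adjusted p = 0.774 in edgeR) and became 0.045 without WT 2.

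*Rpl35a*, one of the genes mutated in Diamond-Blackfan anaemia, was at 242, 249 and 261 CPM in WT and 201, 193 and 303 CPM in Het. Het 3 was the highest library and Het 2 the lowest, so the Het values lay on both sides of WT. The log2 fold change was -0.11 ± 0.19 (SE), and it was 0.0071 without Het 2 and 0.20 with the Y-linked covariate. *Rpl21*, of the large subunit, was at 518, 698 and 523 CPM in WT and 584, 548 and 549.8 CPM in Het. WT 2 again stood above the rest, and the log2 fold change of -0.048 ± 0.12 (SE) became 0.11 without it. *Rpl34*, at the low levels given above, had -0.079 ± 0.12 (SE).

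*Rps24*, in which mutations also cause Diamond-Blackfan anaemia, had the highest log2 fold change, 0.15 ± 0.080 (SE, adjusted p = 0.662 in edgeR). It was at 1048, 901 and 875 CPM in WT and 1127, 1026 and 978 CPM in Het, and WT 1 reached into the Het range. *Rps2* and *Rps18*, small subunit proteins near the mRNA path and in the head of the subunit, were named after their spread was seen. *Rps2* was at 1144, 1062 and 1382 CPM in WT and 1401, 979 and 1421 CPM in Het. *Rps18* was at 694, 583 and 623 CPM in WT and 784, 590.2 and 668 CPM in Het. In neither did the libraries of a genotype stay together, and replicate 2 was the lowest of its group in both.

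**Figure D5:**
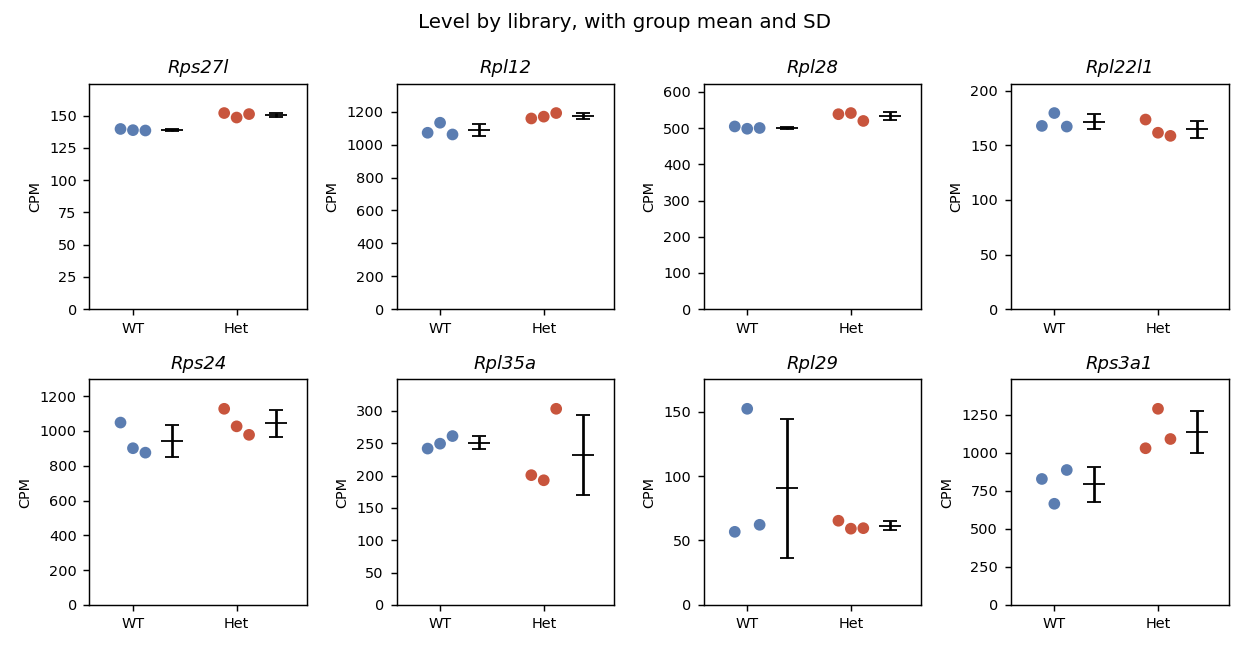
CPM (y axis, from 0) of 8 genes in WT (blue) and Het (red), with 1 point per library in the order of replicates 1, 2 and 3 and, beside them, the group mean with its SD. *Rps27l*, *Rpl12* and *Rpl28* are narrow and apart, *Rpl29* has 1 high WT library, and *Rps3a1* lies outside the symbol rule.

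Of the 7 RPs known to bind Mdm2, 6 could be tested, and all 6 had a log2 fold change above 0 with a median of 0.048. Over all tested members, 87.5% were above 0 with a median of 0.049, so these 6 had values like those of the other members. Besides *Rps27l*, *Rpl11* was at 822, 849 and 837 CPM in WT and 865, 858 and 863 CPM in Het, and *Rpl23* at 914, 983 and 969 CPM in WT and 1018, 1009 and 989 CPM in Het. In both, every Het library exceeded every WT library, with log2 fold changes of 0.044 ± 0.032 and 0.074 ± 0.038 (SE). With *Rps27l*, the groups stood apart in 3 of the 6, against 26.25% of all tested members and 8.32% of all genes. *Rpl5*, which joins *Rpl11* and a small ribosomal RNA in the particle that reaches Mdm2, had 0.040 ± 0.039 (SE) with overlapping groups. *Rps3* (0.052 ± 0.035) and *Rps7* (0.033 ± 0.036) overlapped too.

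Among 17 RP genes mutated in Diamond-Blackfan anaemia, 16 were tested and 14 had a log2 fold change above 0, with a median of 0.053. *Rps19*, the gene most often affected in that disease, was at 769, 781 and 733 CPM in WT and 804, 768.5 and 787 CPM in Het. The groups overlapped at a log2 fold change of 0.047 ± 0.038 (SE). Every Het library exceeded every WT library in 6 of the 16 (37.5%), against 26.25% of all tested members and 8.32% of all genes, and none had an unadjusted p under 0.05.

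Some ribosomal proteins fell outside the symbol rule, and they were looked at after values were seen. *Rps3a1*, at chr3:86137940-86142702 (mm10, minus strand), encodes a core small subunit protein. It was at 828, 665 and 887 CPM in WT and 1029.7, 1289 and 1090.5 CPM in Het. The groups stood well apart, and the log2 fold change of 0.52 ± 0.13 (SE) exceeded that of every member of the rule. In edgeR the p was 0.0086 and the adjusted p 0.437, so it did not pass. In DESeq2 the log2 fold change was 0.51 ± 0.11 (SE) with an adjusted p of 0.0012, against 0.432% of genes called higher by that tool. *Rps3a1* shared 45.3% of its windows with 6 other genes and holds 2 snoRNA genes, and the part of these in its counts was not tested.

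*Fau*, which encodes an RP made as a fusion to a ubiquitin-like protein, and *Gnb2l1*, which encodes the scaffold protein RACK1 of the small subunit, each had every Het library above every WT library. Their log2 fold changes were 0.058 ± 0.037 and 0.055 ± 0.033 (SE), within the range of the members and short of the test. Of 7 RP-named pseudogene rows, 5 were tested, with a median of -0.11 and 1 above 0.

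Members with little and with much shared sequence had like medians. The median log2 fold change was 0.043 over the 14 tested members that shared under 10% of their windows, 0.054 over the 41 that shared from 10% to under 50%, and 0.044 over the 25 that shared 50% or more. In the annotation, 29 members hold 56 snoRNA genes. The median log2 fold change of these hosts was 0.051, against 0.048 over 51 tested members without one. Of these snoRNA genes, 31 had a row. The 29 tested rows had a median of 0.31, with 26 above 0 and 11 at an unadjusted p under 0.05 in edgeR, all higher in Het. Over all tested genes 4.34% were higher at that p. Every Het library lay above every WT library in 13 of the 29 rows (44.8%), against 8.32% of all genes. In 1 row (3.45%) every Het library lay below, against 6.92% of all genes. None of the 29 passed the adjusted threshold in edgeR or DESeq2. Their levels were low, from 0.357 CPM (*Snord42a*, WT 1) to 11.7 CPM (*Snora65*, Het 2). Some shared a host, such as *Snord32a*, *Snord33* and *Snord34* in *Rpl13a*, and the part of host introns in their counts was not tested.

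The starts of the RP transcripts were read to see how many members carry the TOP tract in the annotation. A start with C followed by at least 4 pyrimidines was present in 8 of 84 members (9.52%), against 2.26% of 21951 protein-coding genes. The annotated start is often not the start in use, so a missing tract says only that these letters do not open the annotated transcript. The first 20 bases of 7 members are shown 5′ to 3′ because they hold such a tract, with the tract in capitals (Gencode M21, mm10):

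Rps24: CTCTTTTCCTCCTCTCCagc

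Rps2: CTTCTTCTTCTTCgggagaa

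Rpl4: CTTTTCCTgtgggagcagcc

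Rpl37: CTCTTCCggtctctttggcc

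Rps21: CCCTCCTgcccaatagtgct

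Rpl37a: CTCTTCggacttgggcttgg

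Rpl36: CTTCCTgtcccggccgccat

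The tract of 17 bases in *Rps24* was the longest, and *Rps24* also had the highest log2 fold change among the members, though short of the test. *Rps2*, with 13, was among the members that varied most between libraries. Apart from *Rps24*, the members shown had log2 fold changes from 0.019 (*Rps21*) to 0.090 (*Rpl36*). A relation between the tract and the fold change was not tested.

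Promoter windows from RefSeq (GRCm38.p6, 250 bases before to 50 after the start) were matched for 63 of the 84 members, in 75 windows. The motif CCGGAAG, bound by GABP and other ETS factors and searched on both strands, was present in 34.7% of these windows, against 8.86% of all 32851 windows and 15.3% of the 14675 windows of tested genes. The YY1 motif AAGATGGCG, on both strands, was in 8.0%, against 1.40% of all windows and 2.53% of those of tested genes. CTTTCC, on the gene's strand, was in 38.7%, against 14.1% and 14.04%. Matches can overlap: CTTTCC can share its last 2 bases with CCGGAAG, whose last 3 can open AAGATGGCG. These matches describe the windows and are not shown to be sites in use.

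Mitochondrial RP genes, assembly factors, TOP translation factors and mTOR and MYC regulators had medians nearer to 0 than the RP genes (0.049). That did not hold for the RP-named pseudogenes (median -0.11). *Fau* and *Gnb2l1*, described above, lay at 0.058 and 0.055, like the members. The 77 mitochondrial RP genes had a median log2 fold change of 0.012 with 49 above 0, and at an unadjusted p under 0.05 none was higher and 2 were lower (*Mrpl38* at -0.15 and *Mrps24* at -0.18), a smaller share than the 4.09% of all tested genes. Factors of ribosome assembly had a median of 0.030 over 53 tested, with 36 above 0. At an unadjusted p under 0.05, 5 of the 53 were higher and 2 lower, against 4.34% and 4.09% of all tested genes. Every Het library lay above every WT library in 12 of the 53 (22.6%), near the 26.25% of RP genes and above the 8.32% of all genes. In 2 (3.77%) every Het library lay below, against 6.92% of all genes. The share above was 3.90% in mitochondrial RP genes and 14.3% in TOP translation factors. *Nop10*, a core protein of box H/ACA RNPs, was at 86.7 ± 1.07 CPM in WT and 99.9 ± 3.34 CPM in Het (SD, n = 3). Its log2 fold change was 0.20 ± 0.041 (SE), with an adjusted p of 0.306 in edgeR and 0.036 in DESeq2, and it was the 1 assembly factor that DESeq2 called.

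The 14 translation factors whose mRNAs carry a TOP tract had a median of 0.015, with 9 above 0. The 19 tested regulators of the mTOR and MYC pathways, which drive RP production, had a median of 0.0056, with 10 above 0. The list mixes activators (such as *Rheb* and *Myc*) with inhibitors (such as *Tsc1* and *Mnt*), so its median does not measure that drive. *Mtor* was at 147 ± 12.8 CPM in WT and 125 ± 5.41 CPM in Het (SD, n = 3). Its Het libraries (122 to 131 CPM) all lay below its WT libraries (133 to 159 CPM), as in 1 of the 19 genes (5.26%), against 6.92% of all genes. The log2 fold change was -0.23 ± 0.065 (SE), with a p of 0.0063 and an adjusted p of 0.433 in edgeR. No gene of these 2 lists passed the test in either tool.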

How the data were processed

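Total RNA of 6 libraries (3 WT and 3 Het, each of 2 pooled E9.0 heads) was freed of ribosomal RNA before stranded paired-end sequencing. According to the labels and methods, the authors trimmed the reads, aligned them with STAR (genome build mm10) and counted reads by gene. HTSeq is named in the methods and featureCounts in the submitters' processing notes, and the strand setting is not given in the sources used here. The deposited values are raw counts per gene symbol (24421 rows). Counts were tested with edgeR 4.0.16 (R 4.3.3): TMM scaling, filterByExpr, robust quasi-likelihood test, two-sided, Het minus WT, with Benjamini-Hochberg adjustment over 15584 genes and a threshold of 0.05. DESeq2 1.42.0 was the second tool. Scripts were tested on simulated data. CPM use effective library sizes, and log2 CPM a prior count of 2. The labels give the pools as separate samples.

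Lengths, shared windows of 100 bases and transcript starts come from Gencode M21 (mm10), in which all 84 symbols matched, and promoters from RefSeq. No column of the table was left out. Members described singly were copies and their parents, those with p under 0.05, the 5 highest and lowest by fold change and by level per kilobase, Mdm2 binders, *Rps19* and the 4 untested ones; others are marked, and some results are not reported here. Members and lists were chosen with earlier results of these data known. With 3 against 3 libraries an exact permutation test cannot go below p = 0.1, so none was used. Counting error alone is small at these depths for the abundant members. It is larger for rows with few counts, such as *Rps27* (87 to 193 counts per library) and *Snord42a* (13 to 41).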

Additional observations from a re-analysis of the deposited data

How the results depend on the processing

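Over the 14 refits, no RP member was called under any setting, and the median log2 fold change of the members stayed between 0.030 (without Het 1) and 0.065 (without WT 2), above that of all genes each time. The members at an unadjusted p under 0.05 numbered 5 as reported, 15 with library-size scaling, 1 with the Y-linked covariate, 3 in DESeq2 and 2 to 6 when 1 library was left out. At that unadjusted p, 4.34% of all tested genes were higher and 4.09% lower as reported. The shares of all genes under the other settings are not given here, so those member counts cannot be read as many or few. The count over all genes at an adjusted p under 0.05, which is a different threshold, was 1 as reported, 84 in DESeq2 and 11 without a filter. It was 0 with the Y-linked covariate and 0 to 6 when 1 library was left out. The difference in RP share was 0.191 to 0.328 percentage points when 1 library was left out. In alternatives chosen after seeing the data, the members' median was 0.043 with under 10% shared windows and 0.050 with *Rps3a1* included, and the difference in share was 0.253 without the 8 members that varied most. The median level per kilobase rose to 659 with the length of the longest transcript.

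Of 616 values for 44 named genes under alternatives, 596 kept their direction and their side of the threshold, and 32 genes never changed direction. *Rps3a1* (0.51) and *Nop10* (0.20) passed only in DESeq2. Under the Y-linked covariate, *Rpl35a* became 0.20, *Rpl5* -0.0012 and *Rplp1* -0.0082, and with library-size scaling *Rplp0* became 0.0064. When 1 library was left out, direction changed for *Rpl21* (-0.13 to 0.11), *Rpl29* (-0.82 to 0.045), *Rpl30* (-0.076 to 0.16), *Rpl34* (-0.19 to 0.015), *Rpl35a* (-0.36 to 0.0071), *Rpl39* (-0.018 to 0.073), *Rplp0* (-0.043 to 0.021), *Rplp1* (-0.054 to 0.044), *Rps18* (-0.010 to 0.20), *Rps2* (-0.012 to 0.24) and *Rps4l* (-0.040 to 0.11). WT 2 was the library left out for *Rpl21*, *Rpl29*, *Rpl30* (also Het 1), *Rpl34* and *Rplp0* (also Het 3), WT 1 for *Rpl39* and *Rps4l*, WT 3 and Het 1 for *Rplp1*, Het 1 for *Rps18*, Het 2 for *Rpl35a* and Het 3 for *Rps2*. The cause of these was not tested beyond the library or scaling named.

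Replicate numbers were not treated as pairs: deviations of same-numbered libraries had correlations of 0.17, 0.032 and 0.36, and WT 2 did not correlate best with its own number. With the replicate block, the members' median was 0.049 and 3 members had an unadjusted p under 0.05, with no share of all genes given beside them. At an adjusted p under 0.05, 1 gene was called over the whole table. Depth does not limit the abundant members, but 4 members were too low to test, and shared sequence makes the rows of *Rps27*, *Rpl29* and *Rpl10* uncertain. Y-linked levels were on average higher in Het pools, so genotype and embryo sex could be told apart only in part.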

Other observations

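Outside the RP genes, the tested genes whose log2 CPM followed the members' mean most closely over the 6 libraries were *Mak* (r = 0.992), *Yars2* (0.990), *Edem1* (0.987), *Nptx2* (0.986) and *Cdk4* (0.979), as Pearson's r. They are the 5 highest of all tested genes on 6 points that share library and scaling, and no p is given. *Cdk4* was at 876 CPM on average, *Mak* at 1.70 CPM.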
